A study of Mus musculus with 15 samples.

Results

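Transcripts of 9 genes for the citric acid cycle and the entry of pyruvate into it were followed in mouse pancreatic ductal organoids. The times were 0, 4 and 24 h of doxycycline. The genes were Pdha1, Cs, Idh3a, Idh2, Ogdh, Dlst, Sucla2, Fh1 and Mdh2. Each encodes an enzyme or a subunit of an enzyme, and they are called the 9 enzymes below. They were taken by name from the pathway, and each was the sum of the estimated counts of its transcripts in the GENCODE M21 annotation. They are 9 of the 34554 features that this sum gives, and all 9 passed edgeR's expression filter and were among the 16462 features tested.

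The citric acid cycle runs in the mitochondrial matrix and oxidises acetyl groups to carbon dioxide, passing the electrons to the respiratory chain. Pyruvate dehydrogenase makes acetyl-CoA from pyruvate. Citrate synthase joins it to oxaloacetate, and isocitrate dehydrogenase, 2-oxoglutarate dehydrogenase, succinyl-CoA ligase, fumarase and malate dehydrogenase carry out later steps. Ductal epithelium of the pancreas secretes bicarbonate, and the cycle supplies both energy and carbon dioxide in its cells.

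The organoids are epithelial cultures of normal pancreatic duct, embedded in Matrigel. Of the 5 lines, A217, A220 and A225 carried all alleles for making CA19-9, a sialylated glycan that mice lack, when doxycycline is given (labelled CA19-9 inducible; "inducible" here). The remaining lines, A218 and A223, missed 1 of the alleles needed (labelled genetic negative; "negative" here). Every line was sampled once at 0, 4 and 24 h of doxycycline, 1 µg/ml, which gave 3 inducible and 2 negative libraries at each time and 15 libraries in all. Medium was renewed in all cultures 24 h before harvest, and all were harvested together, so the 0 h cultures spent the same time in fresh medium without doxycycline. The labels name neither the individual alleles nor the missing one, and do not say how many animals the lines came from, so the spread measured is that between these lines. Negative lines received doxycycline too, and a change shared by both genotypes cannot be told apart from an effect of the drug itself.

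Library totals lay between 47915632 and 59411540 estimated counts. EGFP, one of the sequences added to the transcriptome, lay at 0.341 to 0.737 CPM (counts scaled to library size with TMM factors) in inducible lines at 0 h, at 259 to 340 at 4 h and at 270 to 385 at 24 h, and at 0.345 CPM or less in every negative library, so the libraries matched their labels. All 10 duct markers averaged at least 1 CPM, led by Krt8, whereas the acinar, endocrine, fibroblast, endothelial and immune lists each summed to at most 6.90 CPM in any library. The markers of these lists that averaged at least 1 CPM were endothelial Pecam1 at 4.52, immune Cd68 at 1.46 and acinar Cela1 at 1.27 CPM. Cpa1, Ptf1a, Ins1, Ins2, Gcg, Pdgfrb, Cdh5 and Adgre1 were at or near 0. In inducible lines the duct markers summed to 14100 to 15800 CPM at 24 h, against 10500 to 12800 CPM at 0 h. Negative lines gave 16000 to 16600 CPM at 24 h, against 11300 to 11400 CPM at 0 h. The part of this shift in the results below was not tested. In bulk RNA fewer cells of a type and less RNA per cell cannot be told apart.

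All 9 enzymes were well expressed, and their levels kept much the same order in every culture. The order is given per length, in the deposited TPM summed over all transcripts of a gene. Mdh2, the mitochondrial malate dehydrogenase, was highest at 308 ± 12.4 TPM (SD over the 15 libraries). Cs, citrate synthase, followed at 244 ± 6.78 TPM, and Idh2, the NADP-dependent mitochondrial isocitrate dehydrogenase, at 234 ± 12.2 TPM. Pdha1, the E1 alpha subunit of pyruvate dehydrogenase, stood at 179 ± 9.09 TPM and Fh1, fumarase, at 166 ± 13.8 TPM. Idh3a, the catalytic subunit of the NAD-dependent isocitrate dehydrogenase, stood at 128 ± 8.11 TPM, and Dlst, the E2 subunit of 2-oxoglutarate dehydrogenase, at 111 ± 5.81 TPM. Ogdh, the E1 subunit of that complex, and Sucla2, the ADP-forming beta subunit of succinyl-CoA ligase, were lowest at 87.2 ± 4.13 and 83.4 ± 4.88 TPM. The ranges of Mdh2 and Cs, of Idh2 and Pdha1 and of Dlst and Ogdh did not overlap. Neighbours whose ranges overlapped were Cs and Idh2 (in this order in 12 of 15 libraries), Pdha1 and Fh1 (11 of 15), and Ogdh and Sucla2 (10 of 15). Fh1 and Idh3a, and Idh3a and Dlst, overlapped in range but kept their order in all 15 libraries. This order holds for all transcripts of a gene together. On coding transcripts alone Idh3a was lowest, at 38.4 ± 3.15 TPM, the ranges of Mdh2 and Cs overlapped (248 ± 17.2 and 242 ± 6.67 TPM), and Ogdh, Dlst and Sucla2 stood close together at 86.2 ± 4.21, 83.0 ± 2.84 and 82.1 ± 5.04 TPM.

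**Figure D1:**
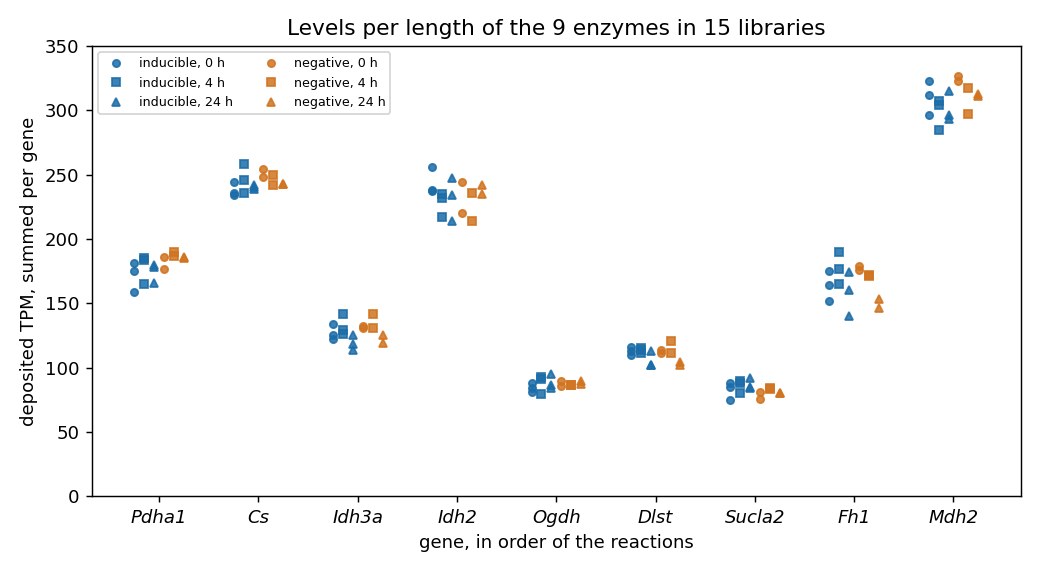
Deposited TPM summed per gene (y axis) for the 9 enzymes in the order of the reactions (x axis), 1 point per library, blue for inducible and orange for negative lines, with the hours of doxycycline as symbols. Mdh2 lies between 285 and 327 TPM in every library, above all points of Cs, and Sucla2 and Ogdh are lowest when all transcripts are summed.

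A pair of near copies of members was also examined, because reads could be shared with them. Csl, a citrate synthase-like gene, reached at most 0.105 CPM in any library, and Pdha2, the testis form of the E1 alpha subunit, had 0 in all 15. Shared reads with pseudogenes were not tested. No source used here states whether strand entered the counting, and where genes overlap on opposite strands their reads cannot be told apart.

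The levels also rest on how the estimated reads were divided among annotated transcripts, and this differed between members. Cs was almost entirely the coding transcript Cs-201, with 99.5% of the gene's TPM on average, and Pdha1-201 held 98.0% and Idh2-201 97.1%. Ogdh-201 held 82.2% of the TPM of Ogdh. Sucla2 was divided between 2 coding transcripts, Sucla2-201 with 55.9% and Sucla2-203 with 42.2%. Fh1 was divided between the longer transcript Fh1-201 of 2636 bases, with 44.8%, and the short coding transcript Fh1-205 of 542 bases, with 46.8%. The coding transcripts of Idh3a held 30.1% of its TPM on average, the lowest share of the 9, between 27.2 and 32.6% in the 15 libraries. The rest went mainly to Idh3a-204, annotated as a target of nonsense-mediated decay, with 37.3%, and to Idh3a-203, annotated as retaining an intron, with 31.6%. Mdh2-203, also annotated for nonsense-mediated decay, held 18.4% of Mdh2. The libraries came from total RNA depleted of ribosomal RNA, which keeps unspliced molecules. How far these shares reflect the division of shared reads by the software was not tested.

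**Figure D2:**
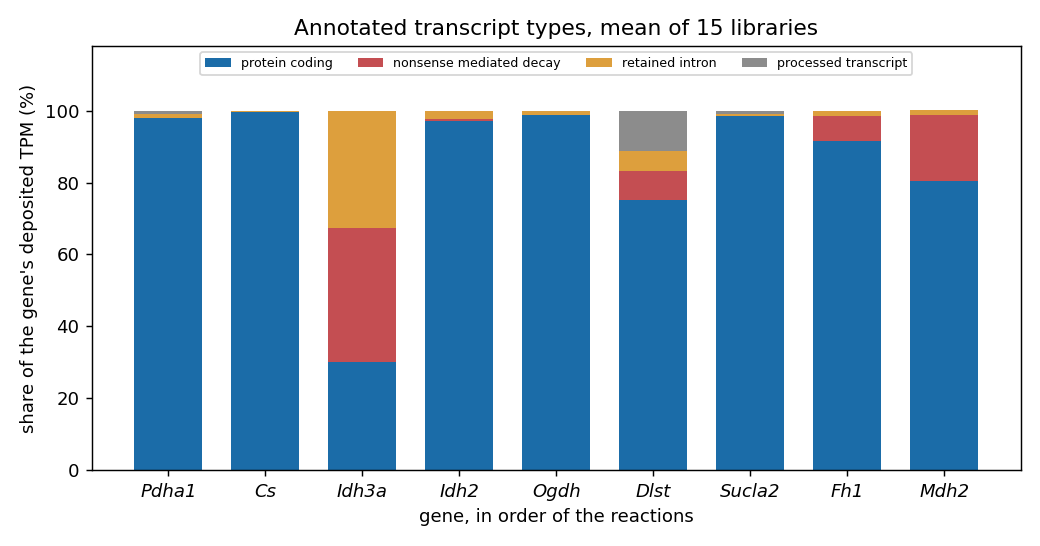
Share of each gene's deposited TPM by annotated transcript type (y axis, percent, mean of 15 libraries; x axis, the 9 enzymes in the order of the reactions). Bars are stacked to 100%; coding transcripts make up 99.5% of Cs but 30.1% of Idh3a.

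The genes lie on different chromosomes of GRCm38. Pdha1 (ENSMUSG00000031299.10) is on the minus strand of chrX:160122209-160138413, Cs (ENSMUSG00000005683.8) on the plus strand of chr10:128337734-128362479 and Idh3a (ENSMUSG00000032279.11) on the plus strand of chr9:54586334-54604661. Idh2 (ENSMUSG00000030541.16) is on the minus strand of chr7:80094846-80115392, Ogdh (ENSMUSG00000020456.17) on the plus strand of chr11:6291633-6356642 and Dlst (ENSMUSG00000004789.10) on the plus strand of chr12:85110833-85134845. Sucla2 (ENSMUSG00000022110.13) is on the plus strand of chr14:73525319-73596142, Fh1 (ENSMUSG00000026526.14) on the minus strand of chr1:175600374-175625635 and Mdh2 (ENSMUSG00000019179.10) on the plus strand of chr5:135778480-135790398. All are annotated as protein coding.

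RefSeq promoters (build GRCm38.p6, 250 bases before to 50 after a start) were matched by symbol for 8 of the 9 genes, all but Idh3a, with 13 promoters because Ogdh has several starts. Motifs of 6 factors known from promoters of mitochondrial or housekeeping genes were searched on both strands. CCAAT was found in 9 of the 13 promoters, belonging to 4 of the 8 genes (Cs, Fh1, Idh2 and Ogdh), and in 37.4% of the 32851 promoters of the table. All 6 promoters of Ogdh hold CCAAT, but some of them overlap and share letters. With 6 promoters Ogdh also had more letters searched than any other member, and the percentages here are shares of promoters, not of genes. The NRF1 letters GCGCATG were found for Ogdh only (3.91% of all promoters), as were the ERR letters AAGGTCA (4.72%) and the E-box CACGTG (7.15%). The ETS letters CCGGAAG were found for Dlst only (8.86%), and the YY1 letters AAGATGG for none (6.34%). The letters of no motif contain those of another, and CACGTG reads the same on both strands. Shown here are the 120 bases before the start of Cs, the member that varied least, and of Fh1 and Ogdh, whose estimated changes at 24 h had opposite signs. They run 5′ to 3′ on the gene's strand, with CCAAT or its reverse complement ATTGG in capitals. A shorter stretch before an inner start of Ogdh has the NRF1 letters in capitals.
Cs, chr10:128337607-128337726, plus strand: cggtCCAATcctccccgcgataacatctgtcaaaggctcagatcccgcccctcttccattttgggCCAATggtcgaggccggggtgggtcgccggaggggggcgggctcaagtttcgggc
Fh1, chr1:175625636-175625755, minus strand: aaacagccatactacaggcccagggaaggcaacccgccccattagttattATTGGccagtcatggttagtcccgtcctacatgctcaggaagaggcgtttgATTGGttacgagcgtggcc
Ogdh, chr11:6291477-6291596, plus strand: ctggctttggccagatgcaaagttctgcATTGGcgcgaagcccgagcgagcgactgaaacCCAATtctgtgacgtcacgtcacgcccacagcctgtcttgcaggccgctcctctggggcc
Ogdh inner start, chr11:6292514-6292557, plus strand: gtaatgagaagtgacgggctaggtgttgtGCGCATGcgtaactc
Each of the 3 longer stretches holds 2 matches. None of the 3 genes had an adjusted p below 0.05 at 24 h in the first edgeR fit given next. No test compared genes or related matches to changes. A match describes the letters alone.

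Doxycycline time was the first question put to the 9 genes: whether inducing CA19-9, or doxycycline itself, went with altered transcripts of the cycle. With edgeR's quasi-likelihood test and Benjamini-Hochberg adjustment over all features, 0 of the 9 were called at an adjusted p below 0.05 in inducible lines at 4 h (0.298% of all tested features were called) or at 24 h (4.93%). In negative lines 0 of 9 were called at 4 h (0.121% of all) and 0 of 9 at 24 h (3.80%). Averaged over the 5 lines, 0 of 9 were called at 4 h (0.917%) and 0 of 9 at 24 h (18.8%). DESeq2 also called 0 of 9 in each of these. At an unadjusted p below 0.05 edgeR gave 1 of 9, Sucla2, in the mean of 5 lines at 24 h (32.8% of all features), and 0 of 9 in the other 5 time comparisons (6.31 to 22.4%). The estimates were narrow: in inducible lines at 24 h the 9 log2 changes lay between -0.08 and 0.11, and their 95% limits between -0.18 for Idh2 and 0.24 for Sucla2.

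The same lines were sampled at each time, and a fit with the line as a block removes constant differences between lines. It called 4 of the 9 in the mean of 5 lines at 24 h, with 36.5% of all features called. Sucla2, Ogdh and Pdha1 were higher and Fh1 lower at 24 h than at 0 h. In the other blocked comparisons 0 of 9 were called: inducible lines at 4 h (3.05% of all features) and 24 h (24.2%), negative lines at 4 h (2.04%) and 24 h (22.5%), and the mean of 5 lines at 4 h (8.87%). At an unadjusted p below 0.05 the blocked fit gave 2, 2, 1, 3 and 3 of 9 in those 5 comparisons, in that order, beside 17.3, 35.7, 14.7, 34.4 and 22.9% of all features. The median log2 change of the 9 genes in the mean of 5 lines at 24 h was 0.021 without the block, against 0.001 over all 16462 features, with 5 of the 9 above 0 and 4 below.

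**Figure D3:**
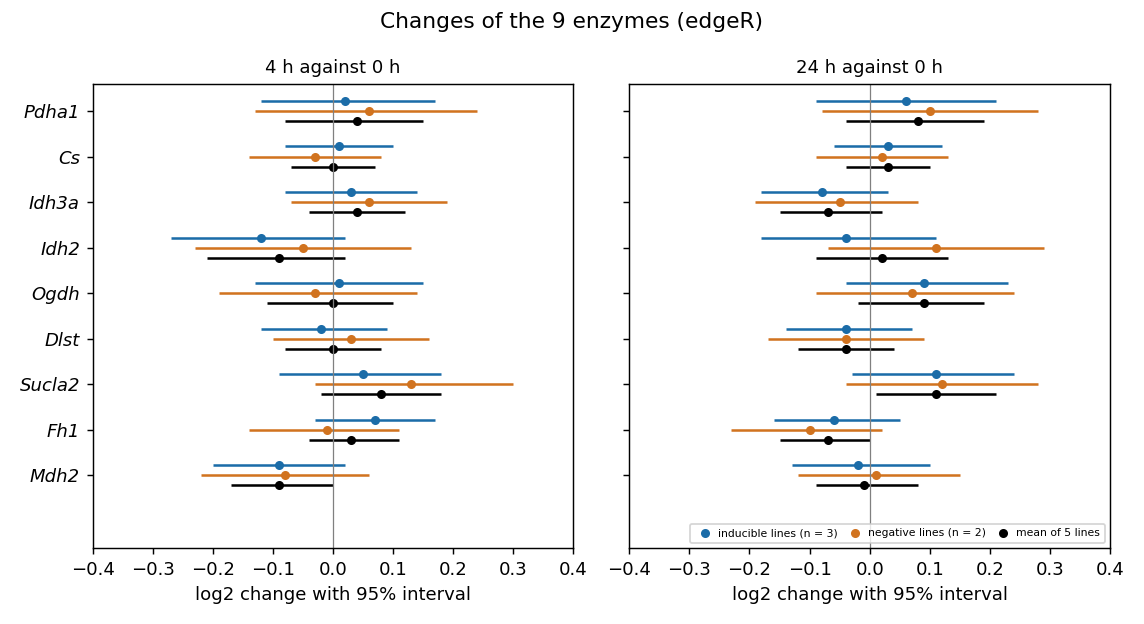
Log2 change (x axis) of each enzyme (y axis) at 4 h and at 24 h against 0 h, with 95% intervals from edgeR without the line as block; blue is the 3 inducible lines, orange the 2 negative lines, black the mean of 5 lines. The estimates lie between -0.12 and 0.13, and Sucla2 at 24 h in the mean of 5 lines is the only one whose interval lies wholly above 0.

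Pdha1, at the entry of pyruvate, was higher at 24 h in every line. In the inducible lines A217, A220 and A225 it stood at 336, 319 and 288 CPM at 0 h, at 333, 335 and 291 CPM at 4 h and at 338, 337 and 308 CPM at 24 h. In the negative lines A218 and A223 it stood at 318 and 332 CPM at 0 h, at 332 and 344 CPM at 4 h and at 350 and 347 CPM at 24 h. The inducible values at 24 h overlapped those at 0 h, and the negative ones did not. Over the 5 lines the log2 change at 24 h was 0.08 ± 0.05 (SE; edgeR adjusted p = 0.341). With the line as block it was 0.08 ± 0.03, higher in 5 of 5 lines (edgeR adjusted p = 0.0324), and with coding transcripts alone in that blocked fit it was 0.06 (edgeR adjusted p = 0.114). With the line as a random block it was not called either (limma adjusted p = 0.0859). In TPM it was higher in 4 of 5 lines.

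Cs, which condenses acetyl-CoA with oxaloacetate, hardly moved. It stood at 456, 472 and 447 CPM at 0 h in A217, A220 and A225, at 448, 465 and 474 CPM at 4 h and at 475, 472 and 461 CPM at 24 h. In A218 and A223 it stood at 477 and 465 CPM at 0 h, at 467 and 456 CPM at 4 h and at 478 and 474 CPM at 24 h. At 24 h and 0 h the values overlapped in both genotypes. The log2 change over the 5 lines at 24 h was 0.03 ± 0.03 (edgeR adjusted p = 0.613), with a 95% interval of -0.04 to 0.10. Over the 15 libraries Cs had a coefficient of variation of 2.19%, and 0.169% of the 4723 features averaging 50 CPM or more had a lower one. The median over those features was 7.0%, and all 9 members lay under it, Dlst next at 3.37% and Idh2 highest at 6.34%. Those features were not matched to the members for level, and the members averaged 95.7 (Sucla2) to 466 CPM (Cs).

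Isocitrate dehydrogenase has an NAD-dependent form, of which Idh3a is the catalytic subunit, and the NADP-dependent mitochondrial form Idh2. Idh3a stood at 155, 156 and 164 CPM at 0 h in inducible lines, at 158, 156 and 171 CPM at 4 h and at 146, 150 and 154 CPM at 24 h. In negative lines it stood at 161 and 158 CPM at 0 h, at 159 and 173 CPM at 4 h and at 157 and 150 CPM at 24 h. Each of the 5 lines had its lowest value at 24 h, and in both genotypes the values at 24 h lay below those at 0 h without overlap. The log2 change over the 5 lines was -0.07 ± 0.04 (edgeR adjusted p = 0.244) and with the line as block -0.07 ± 0.03 (edgeR adjusted p = 0.11), so it was not called. With coding transcripts alone it was -0.11 without the block (edgeR adjusted p = 0.158) and -0.11 with it (edgeR adjusted p = 0.0805).

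Idh2 stood at 280, 258 and 253 CPM at 0 h in A217, A220 and A225, at 250, 233 and 243 CPM at 4 h and at 278, 259 and 235 CPM at 24 h. In A218 and A223 it stood at 259 and 234 CPM at 0 h, at 248 and 229 CPM at 4 h and at 262 and 268 CPM at 24 h. In each of the 5 lines the 4 h value was below the 0 h value, and in inducible lines the groups did not overlap. The log2 change at 4 h was -0.12 ± 0.07 in inducible lines (edgeR adjusted p = 0.758) and -0.12 ± 0.05 with the line as block (edgeR adjusted p = 0.183). At 24 h it was -0.04 ± 0.07 in inducible lines (edgeR adjusted p = 0.814) and 0.11 ± 0.08 in negative lines (edgeR adjusted p = 0.509). The difference between these responses, -0.14 ± 0.11, was not called (edgeR adjusted p = 1).

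Ogdh and Dlst encode E1 and E2 of 2-oxoglutarate dehydrogenase, which makes succinyl-CoA. Ogdh stood at 213, 232 and 215 CPM at 0 h in inducible lines, at 200, 237 and 228 CPM at 4 h and at 228, 249 and 227 CPM at 24 h. In negative lines it stood at 216 and 224 CPM at 0 h, at 218.3 and 214.1 CPM at 4 h and at 229 and 234 CPM at 24 h. It was higher at 24 h than at 0 h in 5 of 5 lines, in CPM as in TPM, while line A220 was above the other lines at every time. The values at 24 h and 0 h overlapped in inducible lines and did not in negative lines. The log2 change over the 5 lines was 0.09 ± 0.05 (edgeR adjusted p = 0.246), and with the line as block 0.09 ± 0.03 (edgeR adjusted p = 0.0431). With coding transcripts alone in the blocked fit it was 0.06 (edgeR adjusted p = 0.128). With the line as a random block it was not called either (limma adjusted p = 0.0692).

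Dlst stood at 184, 180 and 183 CPM at 0 h in inducible lines, at 176, 184 and 180 CPM at 4 h and at 191, 174 and 169 CPM at 24 h. In negative lines it stood at 181 and 179 CPM at 0 h, at 190 and 178 CPM at 4 h and at 176 and 173 CPM at 24 h. It was lower at 24 h in 4 of 5 lines, the exception being A217, which held the highest value of all 15 libraries. The log2 change over the 5 lines was -0.04 ± 0.04 (edgeR adjusted p = 0.524). Per length, Ogdh stood at 0.748 ± 0.0461, 0.773 ± 0.0510 and 0.842 ± 0.0976 times the TPM of Dlst at 0, 4 and 24 h in inducible lines (SD, n = 3). In negative lines the ratio was 0.778 ± 0.00842, 0.749 ± 0.0456 and 0.858 ± 0.0350 (n = 2). On coding transcripts alone the ratio averaged 1.04 over the 15 libraries, against 0.791 with all transcripts.

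Sucla2, the subunit that gives succinyl-CoA ligase its ATP-forming specificity, was higher at 24 h in every line. It stood at 101, 85.5 and 96.3 CPM at 0 h in A217, A220 and A225, at 101, 90.4 and 101 CPM at 4 h and at 102, 97.8 and 104 CPM at 24 h. In A218 and A223 it stood at 90.3 and 84.9 CPM at 0 h, at 94.2 and 98.0 CPM at 4 h and at 96.0 and 94.4 CPM at 24 h. The inducible groups overlapped because A217 was already high at 0 h, and the negative groups did not. Over the 5 lines the log2 change was 0.11 ± 0.05, or 8.01% (unadjusted p = 0.0364, edgeR adjusted p = 0.123). With the line as block it was 0.11 ± 0.03 (edgeR adjusted p = 0.0139), and with coding transcripts alone in that fit 0.09 (edgeR adjusted p = 0.0361). In TPM, Sucla2 was higher at 24 h in 3 of 5 lines.

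Fh1, which hydrates fumarate to malate, was lower at 24 h. It stood at 157, 153 and 149 CPM at 0 h in inducible lines, at 166, 157 and 157 CPM at 4 h and at 157, 140 and 145 CPM at 24 h. In negative lines it stood at 155 and 156 CPM at 0 h, at 153 and 154 CPM at 4 h and at 146 and 143 CPM at 24 h. The inducible groups at 24 h and 0 h overlapped through A217, which was above the other lines at every time, and the negative groups did not overlap. The log2 change over the 5 lines was -0.07 ± 0.04 (edgeR adjusted p = 0.171). With the line as block it was -0.08 ± 0.03, lower in 4 of 5 lines (edgeR adjusted p = 0.0444), and with coding transcripts alone in that fit -0.09 (edgeR adjusted p = 0.0239). Without the 24 h library of A217 the unblocked change was -0.10 (edgeR adjusted p = 0.0324). In TPM, Fh1 was lower at 24 h in 5 of 5 lines.

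Mdh2 closes the cycle by oxidising malate to oxaloacetate. It stood at 255, 279 and 260 CPM at 0 h in inducible lines, at 236, 256 and 254 CPM at 4 h and at 262, 275 and 247 CPM at 24 h. In negative lines it stood at 270 CPM in both lines at 0 h, at 261 and 249 CPM at 4 h and at 272 and 273 CPM at 24 h. All 5 lines had a lower value at 4 h than at 0 h, with overlap in the inducible lines and none in the negative ones. The log2 change over the 5 lines at 4 h was -0.09 ± 0.04 (edgeR adjusted p = 0.423) and with the line as block -0.09 ± 0.03 (edgeR adjusted p = 0.0946). At 24 h it was -0.01 ± 0.04 (edgeR adjusted p = 0.952). In TPM, Mdh2 was lower at 24 h than at 0 h in 5 of 5 lines, against 2 of 5 in CPM.

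**Figure D4:**
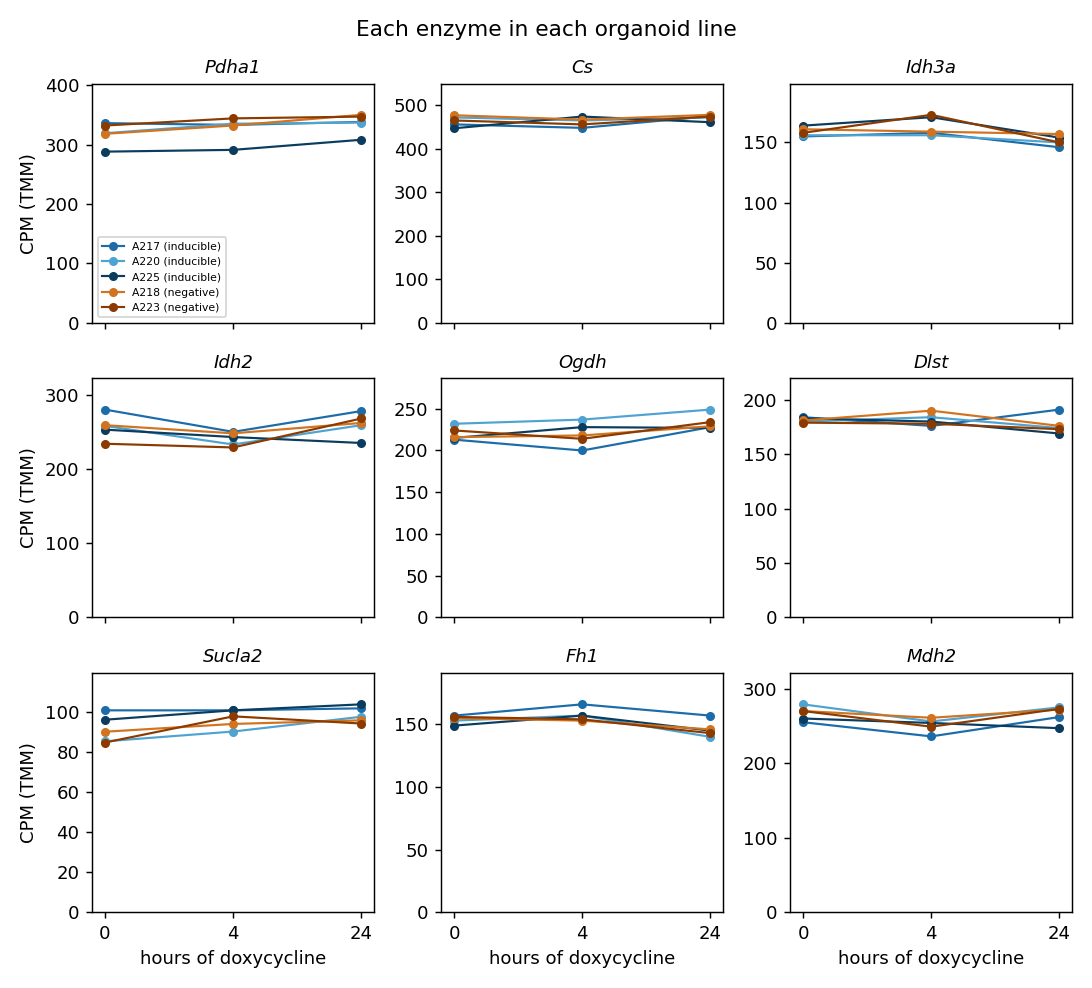
CPM with TMM scaling (y axis, from 0) at 0, 4 and 24 h of doxycycline (x axis, evenly spaced) for each enzyme, 1 line per organoid line, blue shades for inducible and orange shades for negative lines. The tracks are nearly level; A225 is lowest for Pdha1 at every time, and Idh3a is lowest at 24 h in all 5 lines.

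Genotype was the second comparison, and it asks whether lines able to make CA19-9 differ from lines that cannot. None of the 9 enzymes was called in inducible against negative lines at 0 h (0% of all tested features called), at 4 h (0.0121%) or at 24 h (0.0121%), and none in the difference between the genotypes' responses at 4 h (0.0121%) or at 24 h (0.0121%). In edgeR 0 of the 9 had an unadjusted p below 0.05 in any of these 5 comparisons (1.43 to 5.75% of all features had), and DESeq2 called 0. For all features at 0 h, edgeR called 0, with 589 at an unadjusted p below 0.05, and DESeq2 called 5. At 24 h the 9 log2 differences, inducible minus negative, lay between -0.09 and 0.09, and their 95% limits between -0.25 for Pdha1 and 0.24 for Sucla2. The differences of the 24 h responses lay between -0.14 and 0.05, with limits of -0.37 for Idh2 and 0.24 for Ogdh. Summed over the 9 genes, inducible lines held 2109 ± 46.5, 2093 ± 23.5 and 2127 ± 69.0 CPM at 0, 4 and 24 h (SD, n = 3). Negative lines held 2114 ± 17.7, 2108 ± 19.1 and 2162 ± 6.36 CPM (n = 2). In TPM the sums at these times were 1534 ± 9.81, 1549 ± 28.9 and 1506 ± 25.4 in inducible lines. Negative lines held 1576 ± 13.4, 1561 ± 32.5 and 1522 ± 4.95 TPM. The mean sum at 24 h was thus the highest of the times in CPM and the lowest in TPM, in both genotypes. The sums were not tested.

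The variation of log2 CPM over the 5 lines and 3 times was divided as a description of squared deviations. With no difference between lines or times, 28.6% would lie between lines, 14.3% between times and 57.1% in neither. For Pdha1 78.7% of the variation lay between lines, and A225 was below the other lines at all 3 times. For Sucla2 53.5% lay between lines and 30.3% between times, and for Ogdh 51.5% and 31.6%. For Fh1 53.1% and for Idh3a 49.1% lay between times. Line A217 was above the others at all 3 times for both Idh2 and Fh1. For Dlst 62.3% and for Cs 49.7% lay in neither.

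The members did not vary as 1 block across the libraries. Over the 15 libraries, which share lines and times, the most alike pair in log2 CPM was Cs and Mdh2, with a Pearson r of 0.69, followed by Ogdh and Cs with 0.66. Fh1 was most like Dlst, with r of 0.49, and ran against Ogdh, with r of -0.65. Sucla2 ran against Mdh2, with r of -0.61, and Idh2 against Idh3a, with r of -0.55. Of 9296 other genes averaging 10 CPM or more, those most like the mean of the 9 were Pgap3 (r of 0.87), Dctn5 (0.85), Ivd (0.85), Spata2 (0.84) and Prss8 (0.84), over the same 15 libraries.

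The members were also set beside partner subunits and isoenzymes, per length. Pdha1 stood at 1.37 times the TPM of Pdhb, the E1 beta subunit, on average over the 15 libraries. Of the same complex, Dlat was lower in CPM at 24 h than at 0 h in 5 of 5 lines (mean log2 change -0.10). Dld and Pdhb were each lower in 4 of 5 (-0.05 and -0.03) and Pdhx in 3 of 5 (-0.07). Pdha1 was higher in 5 of 5 (0.08). Their difference from Pdha1 was not tested. Idh3a stood at 1.25 times the TPM of Idh3b and 1.01 times that of Idh3g, its regulatory partners. On coding transcripts alone these ratios were 0.402 and 0.333, and those of Sucla2 and Mdh2 to the partners named next were 0.622, 0.780 and 1.03. Sucla2 stood at 0.593 times the TPM of Suclg2, the GDP-forming beta subunit, and 0.776 times that of Suclg1, the alpha subunit shared by both ligases. Mdh2 stood at 1.08 times the TPM of cytosolic Mdh1. Idh2 stood at 0.734 ± 0.0239, 0.685 ± 0.0236 and 0.622 ± 0.0606 times the TPM of cytosolic Idh1 at 0, 4 and 24 h in inducible lines (SD, n = 3), and at 0.731 ± 0.0373, 0.725 ± 0.0353 and 0.691 ± 0.0418 times in negative lines (n = 2). The mean of this last ratio was lowest at 24 h in both genotypes, and the difference was not tested.

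Among 45 other genes of the cycle, of pyruvate entry and of routes into and out of it, all tested, 3 were higher and 1 lower at 24 h in the mean of 5 lines (edgeR, 18.8% of all features called). Idh1, which makes cytosolic NADPH from isocitrate, rose, with a log2 change of 0.19 ± 0.03 and higher values in 5 of 5 lines (edgeR adjusted p = 0.00244). Idh1 held 558, 550 and 570 CPM at 24 h in A217, A220 and A225, against 501, 482 and 482 CPM at 0 h, and 534 and 503 CPM at 24 h in A218 and A223, against 464 and 446 CPM at 0 h. The groups did not overlap in either genotype. Me1, the cytosolic malic enzyme and another NADPH source, rose by 0.13 ± 0.04 on the log2 scale (edgeR adjusted p = 0.0224), and Slc25a11, the mitochondrial carrier that exchanges 2-oxoglutarate for malate, by 0.20 ± 0.04 (edgeR adjusted p = 0.00492), both in 5 of 5 lines.

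Lipt2, the transferase that starts the attachment of lipoate to proteins including the E2 subunits of the 2-oxoacid dehydrogenases, fell. It held 19.0, 17.2 and 17.2 CPM at 24 h in A217, A220 and A225, against 23.4, 23.2 and 21.4 CPM at 0 h. In A218 and A223 it held 17.0 and 16.1 CPM at 24 h, against 22.3 and 21.4 CPM at 0 h. All values at 24 h lay below all values at 0 h. The log2 change in the mean of 5 lines was -0.37 ± 0.07 (edgeR adjusted p = 0.00346). In inducible lines alone Idh1 (0.20 ± 0.04, edgeR adjusted p = 0.0239) and Lipt2 (-0.35 ± 0.09, edgeR adjusted p = 0.0416) were 2 of 45 called at 24 h, against 4.93% of all features. In negative lines 0 of 45 were called at 24 h (3.80% of all features), and 3 of 45 had an unadjusted p below 0.05 (21.2% of all). The log2 change of Idh1 there was 0.19 ± 0.05 (edgeR adjusted p = 0.0666). At 4 h edgeR called 0 of 45 in inducible lines, in negative lines and in the mean of 5 lines, with 0, 2 and 3 at an unadjusted p below 0.05, beside 1251, 1039 and 1976 of the 16462 features. It called 0 of 45 in the differences of the 4 h and 24 h responses, with 0 at an unadjusted p below 0.05 in each (1.43 and 2.51% of all), and 0 of 45 between genotypes at 0, 4 and 24 h, with 1, 2 and 4 (3.58, 3.34 and 5.75%). A random block by line in limma-voom also gave 0 of 45 in these 5 comparisons.

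With the line as block 15 of the 45 were called in the mean of 5 lines at 24 h, 9 higher and 6 lower, against 36.5% of all features. The blocked fit in inducible lines called 10 of 45 at 24 h, 6 higher and 4 lower (24.2% of all features). Those lower were Pdk1, a kinase that inhibits pyruvate dehydrogenase (log2 change -0.44 ± 0.11, edgeR adjusted p = 0.0132), Lipt2 (-0.35 ± 0.06, edgeR adjusted p = 0.00107), Pck2, the mitochondrial PEP carboxykinase (-0.30 ± 0.08, edgeR adjusted p = 0.0148), and Idh3b, a partner subunit of Idh3a (-0.12 ± 0.04, edgeR adjusted p = 0.0249). Those higher were Idh1, Slc25a11, Me1, Aco1, Suclg2 and Glud1, by 0.10 to 0.20 on the log2 scale. In negative lines it called 5 of 45 at 24 h, Idh1, Slc25a11, Slc25a1 and Aco1 higher and Lipt2 lower (22.5% of all features). At 4 h it called Pdp1, a phosphatase that activates pyruvate dehydrogenase, Lipt2 and the dicarboxylate carrier Slc25a10 lower in the mean of 5 lines (8.87% of all features).

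**Figure D5:**
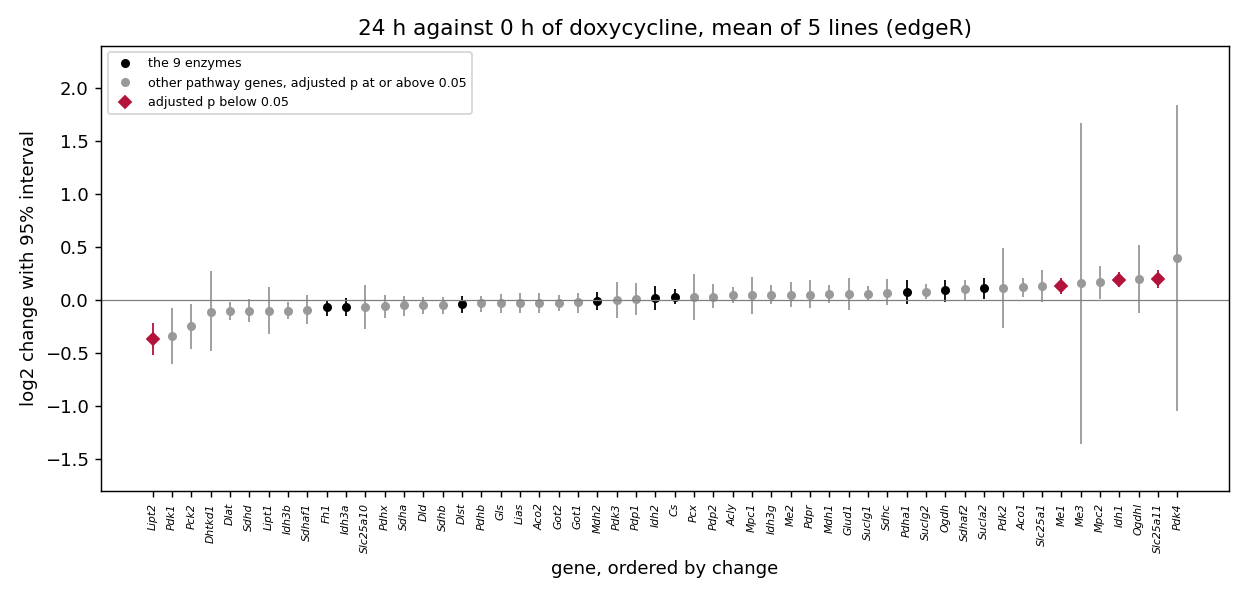
Log2 change at 24 h against 0 h in the mean of 5 lines (y axis, with 95% intervals from edgeR without the line as block) for the 9 enzymes (black) and 45 other genes of the pathway (grey; red where the adjusted p was below 0.05), ordered by change (x axis). The 9 enzymes lie between -0.07 and 0.11, and the 4 called genes are Lipt2, Me1, Idh1 and Slc25a11; Me3 and Pdk4 have wide intervals.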

How the data were processed

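RNA sequencing data of 15 organoid libraries were used. Per the labels' protocols, total RNA with RIN values of 9.8 to 10 was depleted of ribosomal RNA and made into TruSeq libraries. Tools named in the submitters' processing notes are kallisto 0.43.1, DESeq2 1.18.1 and DESeq, with the build GRCm38. For each transcript the deposited files give an estimated count without normalisation, and a TPM value, per the file headers.

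From these, estimated counts were summed per gene with GENCODE M21 (no source used here names the authors' release) and rounded. The 1295 unmatched transcripts, 0.556 to 0.593% of counts, were left out, and sequences added to the mouse transcriptome stayed in. TPM was summed per gene for levels. Tests used the quasi-likelihood fit of edgeR 4.0.16 in R 4.3.3, with 6 group means over 15 libraries, TMM scaling, edgeR's expression filter (16462 features, 99.98% of counts) and Benjamini-Hochberg adjustment over all of them, called below 0.05. The comparisons numbered 11, and ± after a log2 change is its SE. In this fit, which leaves out the pairing of times by line, precision rests on the spread between lines. The members had at least 4289 counts in every library. The 12 pairs of libraries within groups differed beyond counting error (chi-square over its degrees of freedom, 16.04 to 47.48), so none was counted as a copy.

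The same line was sampled at each time, so lines pair the libraries. Deviations from group means correlated between 0.636 and 0.734 over the 9 same-line pairs of inducible libraries. The alternatives were a replicate block by line, limma-voom 3.58.1 with a random block, DESeq2 1.42.0, median-of-ratios scaling, other filters, an offset for effective length, the compared groups alone and leaving out each library. Coding transcripts alone were added after the data were seen. Scripts were tested on simulated data. The members, the gene lists and the tests were chosen with earlier results of these data known. Named are all 9 members and the 5 genes most like the members' mean. The other pathway genes are named only in part. They are those called without the block, some called with it, and some partner subunits and isoenzymes of members.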

Additional observations from a re-analysis of the deposited data

Results flagged for a closer look

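In CPM the change of Fh1 at 4 h against 0 h differed in sign between the genotypes. It was higher in all 3 inducible lines, with a mean log2 change of 0.07. In both negative lines it was barely lower, by 1.1% in A218 and 0.8% in A223, with a mean of -0.01. The difference of the responses, inducible minus negative, was 0.08 ± 0.07 with a 95% interval of -0.08 to 0.24 (edgeR adjusted p = 1; with the line as replicate block 0.991). Fh1 was 1 of 9 enzymes examined for this at each of 2 times. In TPM, Cs at 4 h differed in sign in the same way as Fh1, with means of 0.05 in inducible and -0.03 in negative lines.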

How the results depend on the processing

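No member was called in any of the 11 comparisons under DESeq2, median-of-ratios scaling, either other expression filter, the effective length offset, the compared groups alone or coding transcripts alone. In the mean of 5 lines at 24 h the number of members called, 0 in the reported fit, was 4 with the replicate block, 2 with the random replicate block of limma-voom (Sucla2 and Fh1), 2 with coding transcripts alone and the replicate block (again Sucla2 and Fh1), and 0 to 1 when each library was left out (Fh1 without the 24 h library of A217). The replicate block changed no other call of a member. Of 1611 member values recomputed, 1602 kept their side of the threshold and 9 passed it. Over all features, calls in the mean of 5 lines at 24 h were 3101 in the reported fit, 6008 with the replicate block, 5621 with the random replicate block and 5319 of 14400 with coding transcripts and the replicate block, and in inducible lines at 24 h 812 and 3987 (65 with the compared groups alone, 1754 with DESeq2, 220 to 2002 leaving out each library). The cause was not tested. A fixed block was not possible between genotypes, since each line has 1 genotype. Coding transcripts alone moved the Idh3a change at 24 h to -0.11, against -0.07.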

Other observations

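Among 15 genes for mitochondrial biogenesis, import, outer membrane channels and lactate dehydrogenase, 3 were lower and 0 higher at 24 h in the mean of 5 lines (edgeR, 18.8% of all features called), and 6 lower and 0 higher with the line as replicate block (36.5%). The log2 change of Ppargc1b, a coactivator of mitochondrial genes, was -0.69 ± 0.19 (edgeR adjusted p = 0.0232). Its level was low, 3.43 CPM on average and 87 to 285 counts per library. Nrf1, a transcription factor of nuclear genes for mitochondrial proteins, had -0.17 ± 0.06 (edgeR adjusted p = 0.0474). Timm44, of the inner membrane import motor, had -0.13 ± 0.04 (edgeR adjusted p = 0.0411). The other genes of the list, among them Esrra, Gabpa, Tfam, Tfb2m and Ppargc1a, were not called without the block. The share of counts from the 13 protein-coding genes of mitochondrial DNA was 0.875 ± 0.0656, 0.956 ± 0.0574 and 0.985 ± 0.0901% at 0, 4 and 24 h in inducible lines (SD, n = 3) and 0.760 ± 0.0332, 0.956 ± 0.0474 and 0.890 ± 0.129% in negative lines (n = 2).

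Me3, the mitochondrial NADP-dependent malic enzyme, had a coefficient of variation of 98.1% over the 15 libraries, against at most 6.34% for the 9 enzymes, and was chosen after its values were seen. It held 22.5, 14.5 and 22.1 CPM at 0, 4 and 24 h in the negative line A223, and 1.95, 1.83 and 1.89 CPM in the other negative line, A218. The inducible lines lay between 3.19 and 7.78 CPM at all times.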
